A study of Mus musculus with 18 samples.

Results

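This is an account of 103 genes whose mRNA, by the probes chosen, was raised in mature osteoclasts but not yet in pre-osteoclasts, out of 16593 genes with a symbol on the array. They were chosen by the authors' deposited log2 values, averaged over the 6 arrays of a stage, both genotypes together. A probe was taken when it was detected on all 6 mature osteoclast arrays, when its mature mean exceeded its pre-osteoclast mean by at least 1.5 log2 units, and when its pre-osteoclast and BMM means differed by less than 0.5. The rule took 117 probes, and 14 of the 103 genes had more than 1 of them. Of the 270 probes that met the detection and the late-rise conditions, 105 (88 genes) had also risen by the pre-osteoclast stage and 48 (40 genes) had fallen by then, and these were left out.

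RNA came from bone marrow-derived macrophages (BMMs) of C57BL/6 mice. In ERαΔLysM mice the floxed gene of estrogen receptor α is deleted by Cre from the lysozyme M locus, which acts in macrophages and their precursors, and ERαf/f littermates carry the floxed gene without Cre. The mice were 2 to 3 months old. All cells received 30 ng/ml M-CSF, the survival factor of macrophages, and RANKL, the cytokine that turns macrophages into osteoclasts, was given at 30 ng/ml for 2 days to obtain pre-osteoclasts and for 4 days to obtain mature osteoclasts, while BMMs had none. Each of the 6 groups had 3 arrays. According to the study's text, which the sample labels do not repeat, all cells were also exposed to estradiol before harvest, so no comparison here sets estradiol against vehicle. BMMs were obtained from 3 mice, which in the study's wording reads as 3 of a genotype. Which array held which mouse's cells, and whether the 3 arrays of a group were separate mice, is not stated. A p value measures the spread between these samples.

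An osteoclast is the bone-resorbing cell that macrophage precursors form by fusing with each other under RANKL. Its resorption genes, such as those of cathepsin K and tartrate-resistant acid phosphatase, are switched on by the transcription factor NFATc1 early in this process. The multinucleated cell then seals off a patch of bone and secretes acid and proteases through a ruffled border built by lysosome fusion. The genes below were raised after 4 days of RANKL and not yet after 2 days. Which of these phases they belong to was not tested. Their roles range from histones and autophagy to lysosomal enzymes, the calcitonin receptor and a creatine kinase of striated muscle.

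The deletion could not be read on these arrays, since each of the 2 Esr1 probes was detected on 0 of 9 ERαΔLysM arrays and 0 of 9 ERαf/f arrays. Osteoclast and macrophage markers followed the stage labels, and neutrophil markers also differed between stages. Of 14 tested osteoclast markers, the median was higher by 3.13 log2 units at the early step (pre-osteoclast minus BMM) and by 0.71 at the late step (mature minus pre-osteoclast). The protease gene Ctsk averaged 7.71, 14.89 and 14.71 in BMMs, pre-osteoclasts and mature osteoclasts, so its measured change lay in the early step. The highest mean of any tested probe was 14.99 in pre-osteoclasts and 15.04 in mature osteoclasts. Ctsk was thus near the top of the scale, where a further late rise could have gone unread. Levels here are log2 values after background correction and quantile normalization, on a scale where the undetected Enpp5 probe averaged 4.69 in BMMs. In these bulk samples fewer cells of a type and less RNA per cell cannot be told apart. The summed level of 17 macrophage markers lay between 161.4 and 163.0 on BMM arrays, between 119.5 and 122.7 on pre-osteoclast arrays and between 115.4 and 116.6 on mature arrays. The summed level of 18 neutrophil markers lay between 146.3 and 149.2 in ERαΔLysM BMMs and between 140.8 and 142.2 in ERαf/f BMMs, between 132.7 and 138.5 in ERαΔLysM pre-osteoclasts and between 123.8 and 131.9 in ERαf/f pre-osteoclasts, and between 113.5 and 117.2 in ERαΔLysM mature osteoclasts and between 110.2 and 114.8 in ERαf/f mature osteoclasts. Of their 14 tested genes 1 had a late step above 0 (median -1.33), and Mpo, Ctsg, Prtn3 and Cebpe were detected on 0 mature arrays. The part of these cells in the results was not tested. The median raw signal of an array was 123 to 186 in ERαΔLysM mature osteoclasts, against 163 to 170 in ERαf/f mature osteoclasts, and 6 of the 7 arrays with a median signal of 141 or less were ERαΔLysM.

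The 103 genes ranged from undetected to bright before the last stage. The member probes had a median level of 5.68 in BMMs, 5.65 at the pre-osteoclast stage and 8.30 in mature osteoclasts, whereas the 13409 tested probes had a median of 7.84 at each stage. In BMMs 58 of the 117 probes were detected on all 6 arrays, 24 on some and 35 on 0, and in pre-osteoclasts 54 were detected on all 6, 41 on some and 22 on 0. The late rise ranged from 1.52 to 5.34, with a median of 1.87, which the rule itself bounds from below. For the 22 probes not detected in pre-osteoclasts the difference is measured from background, and with these at their lower bound the median was 1.83. All 117 probes had every mature array above every pre-osteoclast array, while the pre-osteoclast and BMM arrays failed to overlap for 9 probes. These values chose the genes and are given without a test. Both counts of arrays that did not overlap follow largely from the rule, and their share over all tested probes was not computed.

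**Figure D1:**
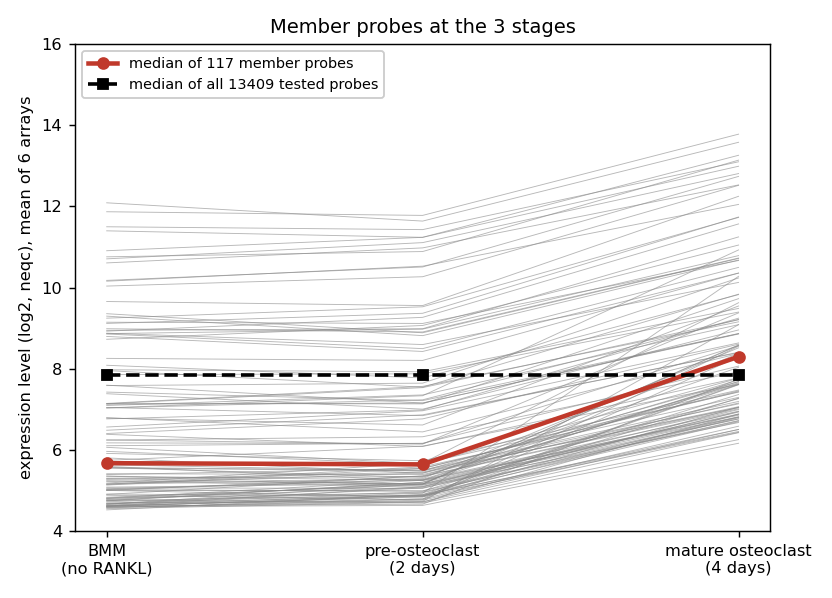
Expression level (log2, neqc values, mean of the 6 arrays of a stage) of each of the 117 member probes (thin lines) at the 3 stages, with the median of the members (red circles) and of all 13409 tested probes (black squares). The member median is 5.68, 5.65 and 8.30, and the median of all tested probes is 7.84 at each stage.

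The array mean over the 117 probes was 8.73, 8.73 and 8.75 in ERαΔLysM mature osteoclasts, against 8.75, 8.73 and 8.74 in ERαf/f mature osteoclasts. In pre-osteoclasts it was 6.59, 6.58 and 6.71 in ERαΔLysM cells, against 6.58, 6.70 and 6.65 in ERαf/f cells. In BMMs it was 6.54, 6.58 and 6.61 in ERαΔLysM cells, against 6.59, 6.56 and 6.51 in ERαf/f cells. The 6 mature arrays were thus within 0.02 log2 units of each other, and the genotypes overlapped at every stage.

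The genes just inside and just outside the limits show how the rule divides a continuum. By the authors' values, Mettl21a (1.516), Tsc22d3 (1.520, for the smaller rise of its 2 probes) and Clic5 (1.522) were the last to pass the late limit, and Sfxn4 (1.492), Prrg2 (1.486) and the second probe of As3mt (1.484) were the first to miss it. On the early limit, Ffar4 (0.496), Ckmt2 (0.485) and Lif (0.476) were just inside, and Chpt1 by another of its probes (0.536), H3c14 (0.557) and H4c8 (0.593) just outside, although the last 2 had late rises of 3.871 and 4.554. On the other side Copz2 (-0.482), Aldoc (-0.467) and H1f2 (-0.452) were inside, and Nmb (-0.510), Msmo1 (-0.535) and Insig1 (-0.537) were outside.

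The largest rise among the members belonged to Enpp5, which encodes a membrane protein of the nucleotide pyrophosphatase and phosphodiesterase family. Its 6 arrays read 4.54, 4.68 and 4.97 (lowest, median and highest) in BMMs, 4.70, 4.88 and 5.22 at the pre-osteoclast stage and 10.20, 10.28 and 10.36 in mature osteoclasts. It was detected on 0 of the 12 earlier arrays and on all 6 mature ones. Because a probe not above background gives only an upper limit, its mature level was at least 29.7-fold above the pre-osteoclast level, the bound being set by the lowest signal detected on each pre-osteoclast array.

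Next to Enpp5 on chromosome 17 lie 2 further members, Rcan2 and Clic5, and the 3 genes together span 4 tested genes in the RefSeq order (GRCm38.p6 assembly). Rcan2 encodes a regulator that binds calcineurin, the phosphatase that activates NFATc1. Its stronger probe had a lowest, median and highest value of 4.54, 4.74 and 4.93 in pre-osteoclasts and of 8.94, 9.11 and 9.18 in mature osteoclasts, at least 13.1-fold higher in the mature cells, and its second member probe was at least 5.17-fold higher. A further Rcan2 probe was at background on every array. Clic5, a chloride intracellular channel family gene, was dim, with a mean of 6.17 ± 0.34 in mature osteoclasts and a bound of 1.72-fold.

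Genes best known from striated muscle contributed 2 members. Ckmt2, the mitochondrial creatine kinase of striated muscle, averaged 9.63 ± 0.16 in mature osteoclasts and 5.68 ± 0.47 in pre-osteoclasts (SD, n = 6 each), 15.5-fold apart. Tnnc1, the troponin C of slow and cardiac muscle, averaged 9.25 ± 0.22 in mature osteoclasts and 6.99 ± 0.22 in pre-osteoclasts (SD, n = 6 each), a difference of 2.26. Tnnc1 was the only member among 15 tested contractile and muscle genes, whose median late step was 0.06.

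**Figure D2:**
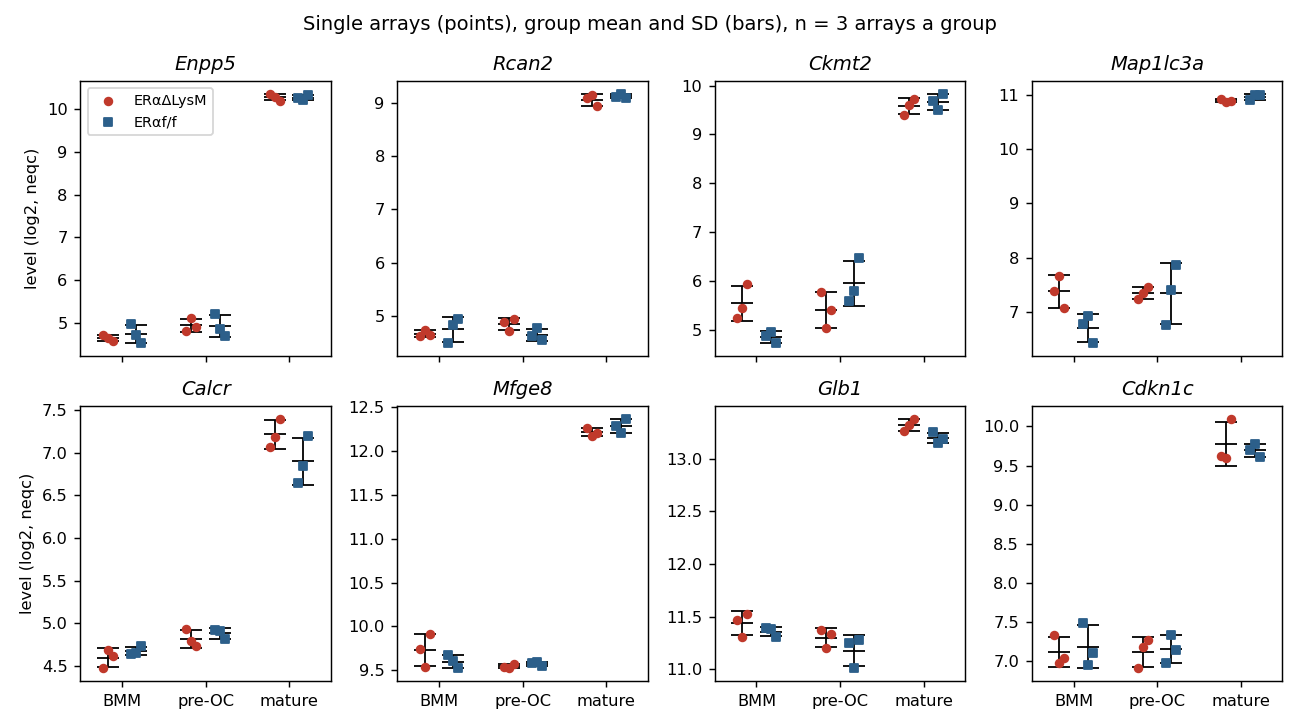
Level (log2, neqc) of 8 member genes on each of the 18 arrays, by stage, with ERαΔLysM (red circles) left of ERαf/f (blue squares), and bars for the group mean and SD (n = 3 arrays a group). Averaged over the genotypes, each gene sits near 1 level in BMMs and pre-osteoclasts. Each is higher on all 6 mature arrays, for Enpp5 between 10.20 and 10.36, where the genotypes lie close together. In BMMs the genotypes did not overlap for Ckmt2 (mean 5.53 in ERαΔLysM, 4.85 in ERαf/f) or Map1lc3a (7.38 and 6.71). Such a lack of overlap was common in BMMs, for 33 of the 117 member probes and 23.6% of all tested probes. Neither genotype difference of these 2 genes passed (adjusted p = 0.193 and 0.190 by limma). The early steps of these 2 genes were -0.13 and -0.03 in ERαΔLysM cells, against 1.10 and 0.63 in ERαf/f cells.

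Histone genes were the largest group among the members. Of 53 tested histone genes, 13 were members (24.5%), against 1.13% of all tested genes, and all 13 lie on chromosome 13, in 4 runs of neighbouring members within the histone gene clusters. They were the H2B genes H2bc4, H2bc7, H2bc9, H2bc11, H2bc12, H2bc14 and H2bc15, the H4 genes H4c9, H4c11, H4c12 and H4c18, the linker histone gene H1f2 and the H3 gene H3c6. H2B and H4 form the core of the nucleosome together with H2A and H3, and H1 binds the DNA where it enters and leaves. Chromosome 13 held 14 members among its 327 tested genes (4.28%).

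The families behaved differently. All 9 tested H2B probes were higher in mature osteoclasts than in pre-osteoclasts, with a median of 2.25, and the 7 member probes lay between 1.75 and 2.37. Of 10 H4 probes 5 were higher by at least 1.5 and 0 lower by as much. Of 20 H2A probes 1 was higher by at least 1.5 and 8 were lower by at least 1.5, with a median of -0.58, and of 13 H3 probes 2 were higher by at least 1.5, with a median of 0.10. The family directions for H2A, H2B and H4 were the same with the authors' values, with no background correction and with median-centred arrays.

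H2bc7 was among the brightest members, with a lowest, median and highest value of 10.48, 10.78 and 11.08 in BMMs, 10.31, 11.10 and 11.21 at the pre-osteoclast stage and 12.93, 13.18 and 13.26 in mature osteoclasts. Its neighbour H2ac7 had 13.79, 14.03 and 14.37 in BMMs, 12.37, 13.43 and 13.69 at the pre-osteoclast stage and 10.93, 11.12 and 11.42 in mature osteoclasts. For both genes the mature and the pre-osteoclast arrays did not overlap, and the order was opposite. H2A and H2B genes of this kind are arranged head to head and share the DNA between their start sites.

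The same opposition held for each of the 4 member H2B genes for which the RefSeq promoter table showed a tested H2A gene head to head. The member H2bc4 was absent from that table and could not be paired, so whether the opposition holds for it was not tested. The mature minus pre-osteoclast difference was 2.22 for H2bc11 and -2.06 for its partner H2ac11. It was 2.30 for H2bc12 and -2.03 for H2ac12. It was 2.21 for H2bc15 and -2.09 for H2ac15, and 2.25 for H2bc7 and -2.02 for H2ac7. The values lay close together on each side, so the 4 pairs may not be 4 separate readings. In a further head-to-head pair, whose H2B gene was not a member, both sides were higher, H2bc8 by 1.23 and H2ac8 by 0.99.

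**Figure D3:**
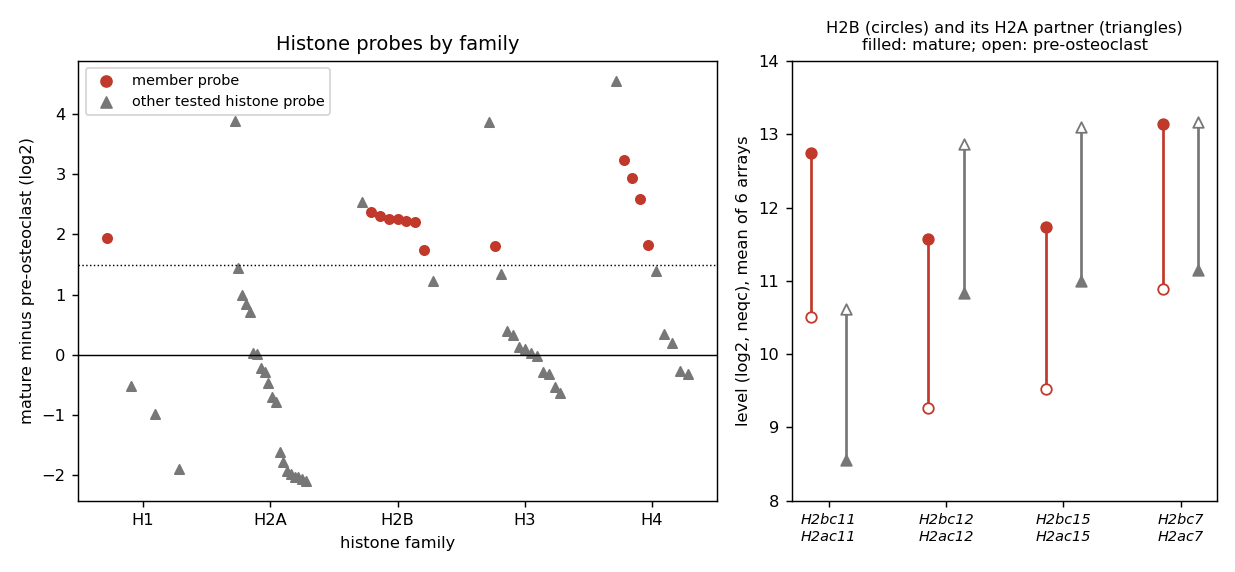
Left, the mature minus pre-osteoclast difference (log2) of each tested histone probe by family, member probes as red circles and others as grey triangles, with a dotted line at 1.5. Right, mean levels (log2, 6 arrays) of 4 head-to-head pairs, H2B as circles and H2A as triangles, filled for mature osteoclasts and open for pre-osteoclasts. Each H2B gene is higher in mature osteoclasts by 2.21 to 2.30 and each H2A partner lower by about as much.

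The DNA that such a pair shares is printed here because both genes of a pair start from it while the probes named for them differed in opposite directions. Each line gives the bases between the 2 annotated start sites, on the strand of the H2B gene, from the RefSeq promoter table of GRCm38.p6, with CCAAT on either strand in capitals. CCAAT is the core of the element bound by nuclear factor Y. The positions are chr13:22042950-22043197 (plus strand) for H2bc11 and H2ac11, chr13:22035644-22035820 (plus) for H2bc12 and H2ac12, chr13:21753913-21754075 (plus) for H2bc15 and H2ac15, and chr13:23574208-23574380 (minus) for H2bc7 and H2ac7.
H2bc11-H2ac11: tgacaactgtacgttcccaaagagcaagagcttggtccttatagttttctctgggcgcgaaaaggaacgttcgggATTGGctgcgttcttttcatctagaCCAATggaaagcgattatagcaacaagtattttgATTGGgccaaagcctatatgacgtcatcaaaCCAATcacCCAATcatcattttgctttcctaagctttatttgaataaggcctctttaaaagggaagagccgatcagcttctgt
H2bc12-H2ac12: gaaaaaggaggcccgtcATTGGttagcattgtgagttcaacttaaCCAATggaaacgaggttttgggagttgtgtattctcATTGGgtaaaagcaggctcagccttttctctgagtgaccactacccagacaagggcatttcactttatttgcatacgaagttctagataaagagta
H2bc15-H2ac15: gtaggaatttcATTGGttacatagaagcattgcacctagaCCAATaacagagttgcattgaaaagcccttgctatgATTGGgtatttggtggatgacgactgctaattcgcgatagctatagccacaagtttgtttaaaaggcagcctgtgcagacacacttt
H2bc7-H2ac7: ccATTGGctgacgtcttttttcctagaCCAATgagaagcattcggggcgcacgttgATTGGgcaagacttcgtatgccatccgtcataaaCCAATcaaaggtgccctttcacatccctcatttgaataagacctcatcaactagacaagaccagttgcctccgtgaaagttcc

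CCAAT or its complement occurred 5, 3, 3 and 4 times in these 4 stretches, in the order printed, and TATAAA occurred 0 times. In the 300-base promoters (250 bases before the start site to 50 after it), CCAAT was present in 8 of 12 member histone promoters, in 7 of 8 promoters of histone genes lower by at least 1.5 in mature osteoclasts and in 37.8% of the promoters of all tested genes. TATAAA was present in 7 of the 12 and in 4 of the 8, and in 7.86% over all tested genes. Among 28 promoters of other tested histone genes, 23 held CCAAT and 14 held TATAAA. The promoters of a head-to-head pair share 252 to 277 of their 300 bases, so 4 member promoters and 4 of the 8 are largely the same DNA, and nothing is read from the likeness of these counts.

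Of the 4 H4 members 3 had larger differences than the H2B members, while H4c9 differed by 1.82. H4c18 had a lowest, median and highest value of 5.63, 6.08 and 6.87 in pre-osteoclasts and 8.90, 9.44 and 9.71 in mature osteoclasts, 9.37-fold apart in the means. H4c12 and H4c11 were higher by 2.93 and 2.59. H1f2 differed by less, 13.58 ± 0.07 in mature osteoclasts and 11.64 ± 0.08 in pre-osteoclasts (SD, n = 6 each), but was the second brightest member.

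Histone genes within a family are near-identical copies, and the closeness of the 6 H2B values between 2.21 and 2.37 cannot be told apart from 1 signal read by several probes, so which copy changed is uncertain. The labels name a MessageAmp kit, which primes on poly(A) tails, whereas most histone mRNAs made during DNA replication end in a stem-loop without one, and the share of each transcript that was read was not tested. The 27 tested genes of DNA replication and mitosis had a median late step of -2.13, with 0 of 27 above 0 and 21 at -1.5 or below. Top2a, the topoisomerase of dividing cells, averaged 8.17 in mature osteoclasts and 10.71 in pre-osteoclasts. The 8 H2A genes lower by at least 1.5 thus had the sign of the replication genes, and the H2B and H4 members had the opposite sign.

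Cdkn1c, which encodes the cyclin-dependent kinase inhibitor p57, was the only member among 11 tested cell cycle inhibitors, whose median late step was -0.03. Its lowest, median and highest values were 6.96, 7.08 and 7.49 in BMMs, 6.91, 7.16 and 7.34 at the pre-osteoclast stage and 9.60, 9.66 and 10.10 in mature osteoclasts, 6.05-fold above the pre-osteoclast mean. The late step of other kinase inhibitors was -0.30 for Cdkn1a, 0.18 for Cdkn1b and 0.85 for Cdkn2c.

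**Figure D4:**
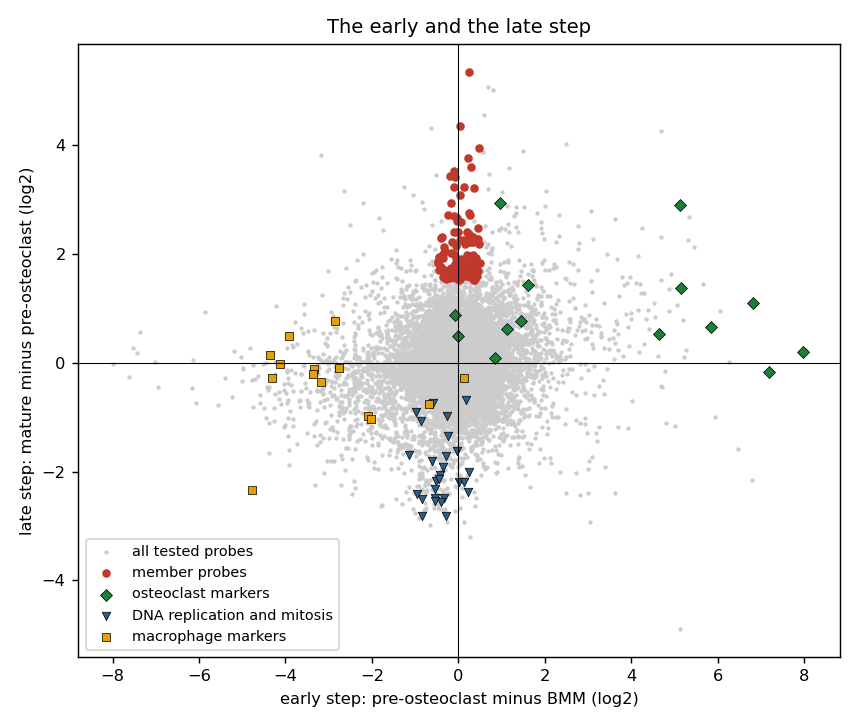
The early step (pre-osteoclast minus BMM, log2) against the late step (mature minus pre-osteoclast, log2) of all 13409 tested probes (grey), the 117 member probes (red), and the tested genes of 3 lists, each gene by its brightest probe. The members fill the narrow column that the rule defines, most osteoclast markers lie to the right, the macrophage markers to the left and the DNA replication and mitosis genes below 0.

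Autophagy genes were the next group. Autophagy encloses cytoplasm in a double membrane and delivers it to lysosomes, and proteins of the ATG8 family are coupled to that membrane. Of 19 tested autophagy genes 17 had a late step above 0 (89.5%, against 50.1% of all tested genes), with a median of 0.49, and 3 were members (15.8%). All 3 encode ATG8 proteins. Map1lc3a (LC3A) averaged 7.04 ± 0.44 in BMMs, 7.34 ± 0.36 at the pre-osteoclast stage and 10.93 ± 0.06 in mature osteoclasts (SD, n = 6 each), a difference of 3.59, and its second probe differed by 3.43.

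The other 2 had smaller differences. Gabarapl2 averaged 7.93 ± 0.26 in mature osteoclasts and 6.33 ± 0.33 in pre-osteoclasts, and Gabarapl1 averaged 10.13 ± 0.06 in mature osteoclasts and 8.60 ± 0.12 in pre-osteoclasts (SD, n = 6 each). The better known Map1lc3b (LC3B), with a late step of 0.92, and Gabarap, with 0.43, did not reach the limit. Outside the list, 3 more members have roles in autophagy: Trp53inp2, a nuclear protein that moves to autophagosomes (a difference of 1.93), Atg9b, a paralog of the membrane scramblase ATG9A (1.55), and Tex264, a receptor for autophagy of the endoplasmic reticulum (1.98). Trp53inp2 and Map1lc3a are near neighbours on chromosome 2 together with the member Acss2, the 3 spanning 4 tested genes.

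Lysosomal genes among the members were Glb1, Ctsa and Mcoln1. Glb1 encodes the lysosomal β-galactosidase, and Ctsa encodes cathepsin A, the protective protein that holds β-galactosidase and the sialidase NEU1 in 1 complex. Mcoln1 encodes TRPML1, a calcium channel of the lysosomal membrane. The 28 tested lysosome genes, with 2 members (7.14%), had a median late step of 0.59 and 22 were above 0, and Ctsa stood in the cathepsin list, with 14 tested genes and a median of 0.22.

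Glb1 was bright at every stage, with a lowest, median and highest value of 11.31, 11.39 and 11.53 in BMMs, 11.01, 11.27 and 11.37 at the pre-osteoclast stage and 13.15, 13.26 and 13.38 in mature osteoclasts, a 4.05-fold difference between the last 2 means. Mcoln1 averaged 8.87 ± 0.19 in mature osteoclasts and 7.22 ± 0.15 in pre-osteoclasts (SD, n = 6 each). The 2 member probes of Ctsa were higher by 1.90 and 1.89, but its brightest probe read 11.83 in mature osteoclasts and 10.84 in pre-osteoclasts, a difference of 0.99 after an early step of 0.49. The sialidase gene Neu1 had a late step of 0.95 after an early step of -0.67. Other lysosome genes went the other way, such as Lamp1 with a late step of -1.03 and Scarb2 with -1.39.

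The promoters of these genes, and of Aff4, a member outside the lysosome and cathepsin lists, are shown because a single sequence recurs in them. TCACGTG is the form of the E-box bound by MITF, a transcription factor of osteoclasts, and by its relative TFEB, which controls lysosome genes. It was found, on either strand, in 8 of the 109 promoters of the 88 member genes present in the RefSeq table (7.34%, exact 95% confidence interval 3.22 to 14), against 5.73% of the promoters of all tested genes and 3.77% of all promoters in the table, so the members as a whole were near the background. The 8 genes were Aff4, Ctsa, Glb1, Kazn, Ldhd, Lpar2, Mcoln1 and Tceal1. It was in 26.7% of the 30 promoters of the lysosome list, 16.7% of the 12 of the cathepsin list, 11.8% of the 17 of the autophagy list and 11.8% of the 17 of the cholesterol synthesis list. The stretches printed next, from GRCm38.p6, carry TCACGTG or its complement CACGTGA in capitals and stop before the start site where they reach it. They lie at chr9:114401009-114401055 for Glb1, chr8:3500427-3500500 for Mcoln1, chr2:164833740-164833772 for Ctsa and chr11:53350694-53350741 for Aff4, each on the plus strand.
Glb1: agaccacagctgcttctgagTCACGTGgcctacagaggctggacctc
Mcoln1: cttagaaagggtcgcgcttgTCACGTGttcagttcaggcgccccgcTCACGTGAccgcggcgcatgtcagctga
Ctsa: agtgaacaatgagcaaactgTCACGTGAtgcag
Aff4: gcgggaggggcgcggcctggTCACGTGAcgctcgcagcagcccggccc

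The first match began 49 bases before the start site in Glb1, 72 in Mcoln1, 13 in Ctsa and 53 in Aff4. In Mcoln1 the letters occurred at 2 places. TCACGTGA holds the motif on both strands at once. The palindromic estrogen response element was in 0 of the 109 promoters and in 0.0104% of the promoters of all tested genes. The AP-1 motif TGANTCA, bound by FOS and JUN, was in 7.34% of the member promoters and 5.76% of the tested ones, and the NFAT core GGAAAA in 20.2% of the member promoters and 21% of the tested ones. The GC box GGGCGG was in 54.1% and 60.7%, the ETS site GAGGAAGT in 6.42% and 3.23%, the antioxidant response core TGACNNNGC (N being any base) in 14.7% and 14%, and the interferon response element in 4.59% and 3.11%. Also searched, on both strands, were TGACGTCA (2.75% and 2.89%), TCAAGGTCA (0% and 0.291%), TTCCNGGAA (0.917% and 1.19%), TGTGGTT (3.67% and 3.75%), the MEF2 site (0.917% and 0.0935%), CCACACCC (4.59% and 3.89%), the NF-kappaB site (9.17% and 7.16%) and the p53 response element core (6.42% and 6.91%).

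Calcr encodes the receptor for calcitonin, the hormone that stops osteoclasts from resorbing, and was the only member among the 14 osteoclast markers. The member probe had a lowest, median and highest value of 4.47, 4.64 and 4.73 in BMMs, 4.73, 4.86 and 4.93 at the pre-osteoclast stage and 6.65, 7.13 and 7.40 in mature osteoclasts, at least 3.20-fold above the pre-osteoclast level. A brighter Calcr probe read 4.49, 5.45 and 8.38 at the 3 stages, so its early step of 0.96 lay outside the rule, and the late step was the larger by either probe.

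Ffar4, a receptor for long-chain fatty acids, had a late step of 1.83, detected on 1 of 6 pre-osteoclast arrays, and the orphan receptor Gpr176 had 2.66. Lpar2, a receptor for lysophosphatidic acid, was at least 2.08-fold higher. Faah, the hydrolase that breaks down anandamide and related lipid amides, was at least 4.67-fold higher in mature osteoclasts than in pre-osteoclasts by its better probe. Their mature levels lay between 6.44 for Lpar2 and 8.30 for Gpr176, which was at the member median.

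Secreted and surface proteins included the brightest member of all. Mfge8, a secreted protein that bridges phosphatidylserine on dying cells to integrins of phagocytes, averaged 13.78 ± 0.14 in mature osteoclasts and 11.78 ± 0.13 in pre-osteoclasts by 1 probe, and 12.25 ± 0.07 in mature osteoclasts and 9.56 ± 0.02 in pre-osteoclasts by the other (SD, n = 6 each). Msln, the surface protein mesothelin, was at background on all 12 earlier arrays and at least 9.03-fold higher in mature osteoclasts. Prnp, the cellular prion protein, and Cd59a, an inhibitor of the complement pore, were bright throughout and differed by 1.67 and 1.70.

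Among signals to other cells, Lif, a cytokine of the interleukin 6 family that acts on osteoblasts, averaged 7.27 ± 0.24 in mature osteoclasts and 5.10 ± 0.25 in pre-osteoclasts (SD, n = 6 each). It was the only member among 16 tested coupling factors, the molecules by which osteoclasts influence bone formation, whose median late step was 0.41. Efna1, a ligand of Eph receptors, was at least 3.97-fold higher. Fstl1, a secreted follistatin-like glycoprotein, and Ltbp3, which binds latent TGF-β, were not detected in pre-osteoclasts and were at least 2.71-fold and 1.84-fold higher in mature osteoclasts, and a brighter Ltbp3 probe that the early limit left out (-0.64) had a late step of 4.30.

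Lipid and sugar metabolism was represented by Scd2, a stearoyl-CoA desaturase (2.40), Acss2, which makes acetyl-CoA from acetate (1.67), Chpt1, which makes phosphatidylcholine (1.59), Aldoc, an aldolase (1.83), and Ldhd, the D-lactate dehydrogenase, at least 2.19-fold higher by the probe not detected in pre-osteoclasts and 1.85 by the other, detected there on 1 of 6 arrays. Scd2 too was detected on 1 of 6 pre-osteoclast arrays. Nsdhl was the only member of the cholesterol synthesis list, with late steps of 1.73 and 1.66. All 17 tested genes of that list had a late step above 0, with a median of 1.29, but most had an early step below 0, the list median being -0.52. Tsc22d3, the glucocorticoid-induced leucine zipper protein, differed by 2.40 and 1.52 by its 2 probes. Nupr1, a stress-responsive nuclear protein, and Ndrg1, a hypoxia-responsive gene, differed by 2.00 and 1.95.

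Probes of 1 gene can disagree, and 35 of the 103 genes had 47 further probes, each of which had missed at least 1 condition of the rule. Of these 24 were detected on all 6 mature arrays, and of the 24, 9 were higher by at least 1.5 and 22 by at least 0.5 in mature osteoclasts. The 2 exceptions were Ahnak, whose member probe differed by 1.93 and whose brighter probe by -0.72, and Mbp, with 1.89 and -0.40. At the early step, 6 of the 24 (5 genes) were higher in pre-osteoclasts than in BMMs by at least 0.5 and 4 (3 genes) lower by as much, so by another probe some genes were not flat before the last stage. Slc14a2, a urea transporter, had an early step of 1.93 and a mature level of 8.98 by its brighter probe, and Cpne8, a copine, 1.33 and 9.52, as against mature levels of 6.46 and 8.38 by their member probes. For Gpx4, the lipid peroxide reductase, the member probe was dim (6.73 in mature osteoclasts) and the brighter probe (12.41) differed by 0.84. None of the tested macrophage, dendritic cell, neutrophil, stromal, adipocyte, endothelial, lymphoid, mast cell or erythroid markers was a member. These lists held only 2 to 14 tested genes each, and 1.13% of all tested genes were members. The lack of members is therefore near the background and says nothing about which cells were present.

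Because the rule used all arrays, the rise of the members is not itself a finding, and the rule was therefore applied to 1 genotype and the chosen probes tested in the other. Chosen on ERαf/f arrays alone, 113 probes (99 genes) were obtained, and in ERαΔLysM arrays 112 of them were higher in mature osteoclasts than in pre-osteoclasts by limma's test and 0 were lower, with a median of 1.77 and a range of 0.47 to 5.34. Over all tested probes, whether or not they rose in the other genotype, 19.6% were called higher in these arrays. The late step differed between the genotypes for only 0.00746% of all tested probes. A high count, here and in the reverse choice, therefore says little beyond the likeness of the genotypes. The exception was Rchy1 (adjusted p = 0.342). In the same arrays 94 of the 113 also had an early step within 0.5, the other condition of the rule, and 79 had a late step of at least 1.5.

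Chosen on ERαΔLysM arrays alone, 119 probes (107 genes) were obtained, and in ERαf/f arrays all 119 were called higher, with a median of 1.91 and a range of 0.85 to 5.34, against 21.1% called higher over all tested probes. Of these, 88 kept an early step within 0.5 and 95 a late step of at least 1.5. Enpp5 differed by 5.34 from its undetected pre-osteoclast level in each genotype, which sets no equality of the true steps. Calcr, likewise undetected in pre-osteoclasts, had 2.40 in ERαΔLysM cells (adjusted p = 1.69e-06 by limma) and 2.02 in ERαf/f cells (adjusted p = 2.92e-06).

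**Figure D5:**
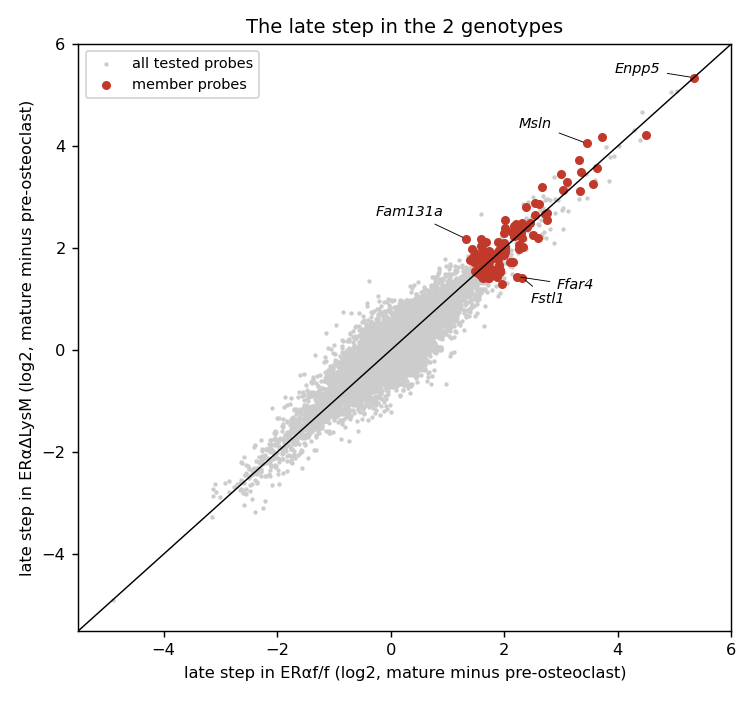
The late step (mature minus pre-osteoclast, log2) in ERαf/f cells (horizontal) and in ERαΔLysM cells (vertical) of all tested probes (grey) and the member probes (red), with the line of equality. The members lie along the line, Enpp5 at 5.34 in both genotypes from a pre-osteoclast level at background, and the named genes farthest from it did not pass the test of the difference.

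The central comparison of the study is between the genotypes, and the rule did not use it. In mature osteoclasts 0 of the 117 member probes passed limma's test between ERαΔLysM and ERαf/f cells after adjustment over all 13409 tested probes, where 0.172% passed. At an unadjusted p under 0.05 there were 9 members (7.69%), near the 7.03% of all tested probes. The median difference of the members was 0.02, that of all tested probes -0.01, and the members ranged from -0.73 to 0.47. The 3 arrays of each genotype failed to overlap for 14 members, and for 14.2% of all tested probes. The median standard error of a difference was 0.171. In simulated data 200 probes were changed by 1 log2 unit and 200 by 0.5. Of these, 82.5% and only 27.5% were recovered in this comparison, so most differences of 0.5 or less would not be detectable here. The simulated comparison had 232 calls and the real one 23. The adjustment is stricter where fewer probes differ, so the recovered shares may be too high for these data.

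The 6 members with the smallest unadjusted p in mature osteoclasts were Ppm1j, Fstl1, Ffar4, Msln, Calcr and Fam131a. Fstl1 read 6.93, 6.45 and 6.03 in ERαΔLysM mature osteoclasts, against 7.20, 7.40 and 6.93 in ERαf/f mature osteoclasts. To 2 decimals the highest ERαΔLysM value equalled the lowest ERαf/f value. The difference was -0.71 ± 0.19 (SE, limma, adjusted p = 0.252), and without the first ERαΔLysM mature array it was -0.94 with an adjusted p of 0.0418.

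Ppm1j, a protein phosphatase of the PP2C family, read 5.89, 6.59 and 6.73 in ERαΔLysM mature osteoclasts, against 7.03, 7.21 and 7.16 in ERαf/f mature osteoclasts by 1 of its probes. The groups did not overlap, and the difference of -0.73 ± 0.19 did not pass (SE, limma, adjusted p = 0.240). The other Ppm1j probe differed by -0.37. Ffar4 read 6.38, 7.20 and 6.42 in ERαΔLysM mature osteoclasts, against 7.30, 7.31 and 7.37 in ERαf/f mature osteoclasts, again without overlap and without passing (adjusted p = 0.517 by limma).

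The remaining 3 were higher in ERαΔLysM mature osteoclasts. Calcr read 7.07, 7.18 and 7.40 in ERαΔLysM cells, against 6.65, 6.85 and 7.20 in ERαf/f cells, and the groups overlapped (difference 0.32 ± 0.13, SE, limma, adjusted p = 0.638). Msln differed by 0.34 (adjusted p = 0.576 by limma) and Fam131a by 0.47 (adjusted p = 0.638 by limma), with overlapping arrays in both.

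Before the last stage, 0 of the 117 passed in pre-osteoclasts, where 0.0746% of all tested probes passed, and 1 passed in BMMs, where 0.321% passed. That 1 was Oasl1, an interferon-induced gene of the oligoadenylate synthetase family. It read 5.25, 4.99 and 5.38 in ERαΔLysM BMMs, against 6.10, 5.91 and 5.95 in ERαf/f BMMs. The difference was -0.78 ± 0.15 (SE, limma, adjusted p = 0.0472), lower in 3 of 3 ERαΔLysM arrays, and it lost the call when any 1 of the 6 BMM arrays was left out (adjusted p = 0.0748 to 0.194). It was detected on 4 of the 6 BMM arrays. The neutrophil sums of the genotypes, which did not overlap in BMMs, stand beside this value, and their part in it was not tested. In mature osteoclasts the genotypes differed by 0.01 for this gene.

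The late step itself was also compared between the genotypes. Of the members, 0 passed limma's test of the difference between the genotypes' late steps, where 0.00746% of all tested probes passed, and 7 had an unadjusted p under 0.05 (5.98%, against 4.41% of all tested probes). The median difference was 0.00 and the range -0.89 to 0.86. Fstl1 was at the low end, with a late step of 1.42 in ERαΔLysM cells and 2.32 in ERαf/f cells, from an undetected pre-osteoclast level, and Fam131a at the high end, with 2.18 in ERαΔLysM cells and 1.33 in ERαf/f cells (adjusted p = 0.911 for both by limma).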

How the data were processed

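RNA of BMMs, pre-osteoclasts and mature osteoclasts was measured on 18 Illumina MouseRef-8 arrays, 3 per genotype and stage. The authors deposited bead intensity values per probe, not normalized, with detection p-values that rate a signal against control beads, and log2 values normalized with lumi, whose settings are not given in the sources used here. Of 26529 features, 832 (3.14%) had no identifier and were dropped. The intensity values were background corrected and quantile normalized on the log2 scale with neqc (limma 3.58.1, R 4.3.3, offset 16), and these values are printed, except that membership and the limits of the rule use the authors' log2 values. The 2 sets differed by at most 0.0281.

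The 13409 probes detected (p under 0.05) on 3 or more arrays entered a limma model of 6 group means (12 residual degrees of freedom), and p values were adjusted by Benjamini-Hochberg over all of them. In simulated data with known changes 12 of 232 calls were false. In gene lists a gene stood by its brightest probe. Gene names, neighbours and promoters came from RefSeq (GRCm38.p6), and the array files name no build. Probes carried the annotation of version 2 of the array, while the study names version 1. Named genes were the 24 with the largest late rise and the 8 brightest, members of the lists, those nearest the limits, and those called between genotypes or, failing that, the 6 with the smallest p in mature osteoclasts; not every one is printed. Members, lists, rules and alternatives were chosen with earlier results of these data known. Tests were run again with the authors' log2 values, other background corrections, normalizations, filters, priors, weights and replicate blocks, with other limits in the rule, and without each array.

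Whether same-numbered arrays belong together was checked by correlating their deviations from group means. The sources do not say so and the correlations were not all above 0.1, so the numbers were not used for pairing.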

Additional observations from a re-analysis of the deposited data

How the results depend on the processing

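With a late limit of 1.0 the rule gave 257 genes, its ceiling of 300 probes being reached, with 2.0 it gave 42, and with an early limit of 0.25 it gave 62. Leaving out 1 array gave 97 to 106. Median-centred arrays gave 69 genes, of which 63 were among the 103, so membership of the other genes depends on the normalization.

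In mature osteoclasts 2 of the 300 probes taken under the late limit of 1.0 passed between genotypes, where 0.172% of all tested probes passed. When 1 mature array was left out 0 to 1 member passed, the 1 being Fstl1 without the first ERαΔLysM array. In BMMs the count of 1 became 2 with median-centred arrays, 4 with array weights, and 0 with no detection filter, with BMM arrays alone, with the replicate block as a fixed term, with the late limit of 2.0, with the early limit of 0.25 and without the detection condition, and 0 in each of the 6 fits without 1 BMM array. With no background correction and with a trended robust prior the count stayed at 1, but the gene was Trp53inp2, higher in ERαΔLysM BMMs by 0.35 and 0.45, and not Oasl1. In pre-osteoclasts, and for the late step between genotypes, it was 0 in every setting. The share of all tested probes that passed was not computed for the refitted models, so their counts cannot be set against a background.

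Median-centring in place of quantile normalization gave member medians of -0.16, -0.14 and -0.18 in mature osteoclasts, pre-osteoclasts and BMMs, where all tested probes had medians of -0.13, -0.20 and -0.43, and a mature minus pre-osteoclast mean over members of 1.95, against 2.10. Leaving out 1 array gave medians of -0.01 to 0.01, -0.06 to 0.03 and -0.02 to 0.05 at these stages, and -0.04 to 0.02 for the late step between genotypes. The counts called higher in the other genotype stayed at 109 to 112 and 118 to 119. The replicate block as a fixed term changed no genotype call other than that of Oasl1 (adjusted p = 0.0663 with the block, limma). Chosen after seeing the data were the leave-one-out and median-centred settings for the number of genes, those for the mean over members and the histone families, and all those for Oasl1 in BMMs.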

Other observations

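Members also lay together outside the histone clusters. Galnt6, an enzyme that starts O-linked glycans, and Slc4a8, a sodium-driven bicarbonate exchanger, are adjacent among the tested genes of chromosome 15, and were higher in mature osteoclasts by 1.63 and 1.92. Ppm1j and Mov10 span 3 tested genes on chromosome 3.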
